A study of Mus musculus with 8 samples.

Results

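The transcripts described here come from 10 genes of the endoplasmic reticulum chaperone system: Hspa5, Hsp90b1, Calr, Pdia3, Pdia4, Pdia6, Dnajb9, Herpud1, Sdf2l1 and Xbp1. They were chosen by name, as targets and parts of the unfolded protein response, and found through the NCBI Gene number of each row. All 10 members were present among the 18215 gene numbers of the tables, and all 10 passed the filter on low counts that left 12670 genes to test. The samples are hearts of mice that carry a Carns transgene (TG) and hearts of wild-type mice (WT), 4 libraries of polyadenylated RNA in each group. Strain, age, sex and the promoter that drives the transgene are not given in the sources used here. The labels do not state whether each library is a separate animal. The p-values therefore rest on library-to-library spread, part of which may be technical. These are bulk libraries, in which fewer cells of a type and less RNA per cell cannot be told apart.

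Proteins that enter the endoplasmic reticulum are folded by resident chaperones. Hspa5 encodes BiP, the Hsp70 of this compartment, and Hsp90b1 encodes its Hsp90. Calreticulin (Calr) holds glycoproteins by their sugars, and the protein disulfide isomerases Pdia3, Pdia4 and Pdia6 form and rearrange disulfide bonds. When unfolded protein accumulates, membrane sensors start the unfolded protein response, in which the factors Xbp1 and Atf6 raise transcription of chaperone and degradation genes. In the heart this compartment is continuous with the extensive sarcoplasmic reticulum, which stores the calcium for contraction, and calreticulin also binds calcium.

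The promoters of several members hold a known binding element of that response, and they are shown because they mark which members share it. The element called ERSE was searched as CCAAT and CCACG with 9 unspecified bases between them, and its shorter relative ERSE-II as ATTGG and CCACG with 1 unspecified base between them, on both strands in the 250 bases before the RefSeq start of each gene (assembly GRCm38.p6). All 10 members had such a window. ERSE was present in 4 of the 10 members (Hspa5, Hsp90b1, Calr and Pdia6) and in 0.113% of 32851 windows of the same length. ERSE-II was present in 1 member, Herpud1, and in 0.0304% of all windows. The 2 searches are written separately but share the letters CCACG, and both include a CCAAT box or its reverse complement, which alone was present in 9 of the 10 members and in 33.8% of all windows. The letters TGACGTGG, the core of another response element, were in no member window and in 0.563% of all windows. A match describes the letters only, and an absent match says only that these letters are not in this window. The members were picked as targets and parts of this response, so their counts beside the shares of all windows carry no test. The 3 windows below run 5′ to 3′ on the strand of the gene, with ERSE or ERSE-II in capitals. Hspa5 lies on the plus strand at chr2:34771840-34772089, Hsp90b1 on the minus strand at chr10:86705445-86705694 and Herpud1 on the plus strand at chr8:94386179-94386428.
Hspa5: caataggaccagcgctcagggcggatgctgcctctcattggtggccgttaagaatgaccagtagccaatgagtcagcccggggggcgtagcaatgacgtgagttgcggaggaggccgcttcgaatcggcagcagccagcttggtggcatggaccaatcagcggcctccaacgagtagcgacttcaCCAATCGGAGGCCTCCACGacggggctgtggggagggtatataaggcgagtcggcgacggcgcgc
Hsp90b1: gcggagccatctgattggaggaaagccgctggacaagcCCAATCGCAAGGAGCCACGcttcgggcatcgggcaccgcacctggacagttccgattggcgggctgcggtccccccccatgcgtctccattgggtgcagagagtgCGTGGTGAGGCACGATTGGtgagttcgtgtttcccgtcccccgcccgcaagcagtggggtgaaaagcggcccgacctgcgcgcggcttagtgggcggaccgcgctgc
Herpud1: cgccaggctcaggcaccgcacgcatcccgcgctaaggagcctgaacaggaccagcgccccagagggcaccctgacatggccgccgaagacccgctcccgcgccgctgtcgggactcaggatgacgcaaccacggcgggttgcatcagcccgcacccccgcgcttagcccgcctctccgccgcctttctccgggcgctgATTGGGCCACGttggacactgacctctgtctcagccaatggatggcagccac

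The ERSE match of Hspa5 lay between 65 and 47 bases before the start. Hsp90b1 held 2 matches, 1 on the gene's strand from 212 to 194 bases before the start and 1 on the opposite strand from 107 to 89. In Herpud1 the match to ERSE-II lay from 52 to 42 bases before the start. The 2 remaining ERSE matches, with all their letters read on the gene's strand, were these.
Calr: CGTGGTCGACCCTCATTGG
Pdia6: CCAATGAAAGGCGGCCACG

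The Calr match is on the opposite strand, from 162 to 144 bases before the start, and that of Pdia6 on the gene's strand, from 98 to 80 bases before it. The windows of Pdia3, Pdia4, Dnajb9, Sdf2l1 and Xbp1 held neither element.

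Levels of different genes were compared per length, as deposited fragments per kilobase of transcript, scaled to library size (FPKM). Calr was the most abundant member, with means of 258 ± 16 FPKM for TG and 261 ± 40 for WT (SD, n = 4 per group). Herpud1, a membrane protein of the degradation pathway, followed at 135 ± 10 and 154 ± 17 FPKM. Hspa5 stood at 108 ± 25 and 106 ± 38 FPKM, so the SDs of Herpud1 and Hspa5 overlapped in each group. Pdia3, Hsp90b1 and Xbp1 formed a middle tier. Their TG means were 53.5, 49.6 and 45.7 FPKM and their WT means 53.6, 50.3 and 48.9 FPKM, closer together than the SD of Pdia3 (13.1 and 18.6) or of Hsp90b1 (18.5 and 18.8). Pdia6 stood at 36.7 ± 5.8 and 37.9 ± 9.9 FPKM and Dnajb9 at 22.5 ± 5.9 and 21.3 ± 6.6. Pdia4 at 16.2 ± 2.1 and 14.2 ± 3.8 FPKM and Sdf2l1 at 6.89 ± 1.30 and 8.32 ± 1.68 closed the order (SD, n = 4 each). Mean ± SD ranges of Dnajb9 and Pdia4 overlapped in TG and in WT, while those of Pdia6 and Dnajb9, and of Pdia4 and Sdf2l1, did not overlap in either group. Among the tested genes, Calr lay at percentile 97.4 of mean FPKM and Sdf2l1 at percentile 52.4, so this chaperone machinery ranged from very abundant to median transcripts.

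The 8 libraries held 6261193 to 7897629 expected counts, and 3 counts corresponded to 0.380 to 0.479 counts in 1000000 (CPM). They fell into 2 sets by total, with 4 libraries above 7000000 counts (TG replicates 1 and 3, WT replicates 1 and 2) and 4 below (TG replicates 2 and 4, WT replicates 3 and 4). The labels name no batch, and each set holds 2 libraries of each group. Carns1, the gene of the transgene, averaged 20812 ± 2454 CPM across TG libraries and 62.6 ± 12.5 CPM across WT libraries (SD, n = 4 each), in the direction the labels give. The 8 cardiomyocyte markers, Myh6 and Tnnt2 among them, were listed in these tables and summed to 65930 to 77670 CPM of the library totals. Apart from sums of markers, CPM values are scaled by trimmed means (TMM), as in the test.

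No member differed between TG and WT beyond the spread of the libraries. With edgeR's quasi-likelihood test and Benjamini-Hochberg adjustment, 0 of the 10 members passed at 0.05, where 0.0158% of all 12670 tested genes did (2 genes, 0.00789% of the tested genes called higher and 0.00789% called lower in TG). No member had an unadjusted p under 0.05, against 3.49% of all tested genes, and DESeq2 called none of the 10 and gave none such a p. In no member were the 4 TG values separated from the 4 WT values, against 2.53% of all tested genes. The members' log2 fold changes ran from -0.25 to 0.20 with a median of -0.01, and the median of all tested genes was 0.00. Of the 10 values 6 were negative, and 50.5% of all tested genes were.

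BiP and its Hsp90 partner varied widely within both groups. Hspa5 stood at 211, 324, 246 and 329 CPM in TG replicates 1 to 4 and at 202, 194.5, 386 and 294 CPM in WT replicates 1 to 4. The highest library of all and the 2 lowest were WT, and the groups overlapped throughout. TG minus WT was 0.04 on the log2 scale (SE 0.21, edgeR with Benjamini-Hochberg adjusted p = 1.0), and the 95% interval of the TG to WT ratio ran from 0.749 to 1.42. Hsp90b1 measured 97.6, 172, 95.1 and 186 CPM in the TG libraries and 91.1, 106, 195 and 162 CPM in the WT libraries. In each group 2 libraries lay at 106 CPM or less and the other 2 at 162 CPM or more. Its log2 fold change was -0.01 (SE 0.26, edgeR, adjusted p = 1.0), with an interval of the ratio from 0.668 to 1.47.

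**Figure D1:**
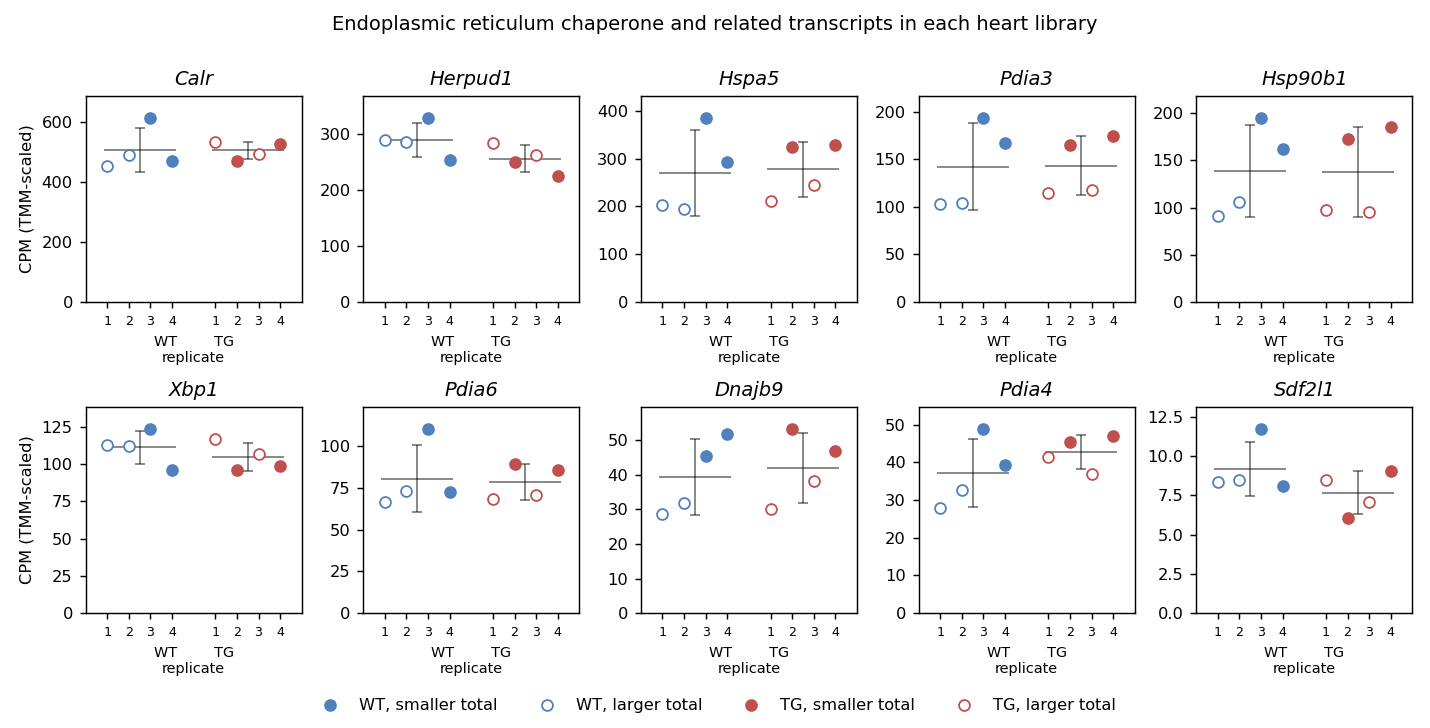
TMM-scaled CPM of each member in every library, with WT replicates on the left and TG replicates on the right of each panel. Filled circles are the 4 libraries with smaller totals, open circles the 4 with larger totals, and the bars give the group mean and SD (n = 4). For Hspa5, Hsp90b1, Pdia3 and Dnajb9 all filled circles lie above all open ones in both groups, while the WT and TG means are close.

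The glycoprotein chaperone Calr was steadier. It measured 533, 471, 492 and 527 CPM in the TG libraries and 453, 489.9, 615 and 472 CPM in the WT libraries, so that WT replicate 3 was the highest and WT replicate 1 the lowest library. The log2 fold change was 0.00 (SE 0.11, edgeR, adjusted p = 1.0), and its interval of the ratio, 0.839 to 1.18, was narrower than that of Hspa5. Pdia3, which works with calreticulin on glycoproteins, did not follow its steadiness. It measured 115, 166, 118 and 175 CPM in the TG libraries and 103, 104, 194 and 168 CPM in the WT libraries, with the same 4 libraries high as for Hsp90b1. Its log2 fold change was 0.01 (SE 0.21), with an interval of the ratio from 0.734 to 1.39.

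Pdia4 had the largest positive value among the members. It measured 41.5, 45.5, 36.8 and 46.9 CPM in the TG libraries and 27.8, 32.7, 48.9 and 39.4 CPM in the WT libraries. WT replicates 1 and 2 lay below every TG library, while WT replicate 3 lay above all of them. The log2 fold change was 0.20 (SE 0.17, edgeR, unadjusted p = 0.250, adjusted p = 1.0). Without WT replicate 3 it was 0.36, with an edgeR unadjusted p of 0.036 and a Benjamini-Hochberg adjusted p of 0.996. Without WT replicate 1 it was 0.09 (edgeR unadjusted p = 0.597). The value thus depended on single libraries in both directions, and Pdia4 was not called with or without either of them. Pdia6, another disulfide isomerase, measured 68.4, 89.2, 70.8 and 86.0 CPM in the TG libraries and 66.3, 73.1, 110.4 and 72.6 CPM in the WT libraries. Apart from WT replicate 3 the WT libraries lay within the range of the TG libraries or just below it, and the log2 fold change was -0.04 (SE 0.16).

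Among the members that assist degradation and signalling, Herpud1 had the smallest unadjusted p. This gene encodes a membrane protein that recruits the degradation machinery. It measured 283, 249.5, 262 and 225 CPM in the TG libraries and 289, 284, 328 and 253 CPM in the WT libraries. WT replicates 1, 2 and 3 lay above all TG libraries, replicate 2 by a narrow margin, and WT replicate 4 lay among them. The log2 fold change was -0.18 (SE 0.11, edgeR, unadjusted p = 0.132, adjusted p = 1.0), with an interval of the ratio from 0.747 to 1.04. Sdf2l1, a partner of BiP and its cochaperones, measured 8.48, 6.03, 7.09 and 9.06 CPM in the TG libraries and 8.37, 8.46, 11.7 and 8.10 CPM in the WT libraries. Its log2 fold change of -0.25 was the lowest of the 10 (SE 0.19, edgeR, unadjusted p = 0.208), and its 38 to 78 expected counts per library were by far the fewest of the members. Its deposited counts, 37.8 to 78.3, were not whole (beyond 0.005) in 7 of 8 libraries, as was 1 of 8 for Pdia4 and none for the other 8 members. An expected count that is not whole can arise where a read is divided between genes, which was not tested.

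Dnajb9, a J-domain cochaperone of BiP, measured 30.0, 53.3, 38.1 and 46.8 CPM in the TG libraries and 28.7, 31.8, 45.6 and 51.8 CPM in the WT libraries, and its log2 fold change was 0.09 (SE 0.21). Each group held its own low and high libraries. The transcription factor gene Xbp1 measured 117, 96.0, 107 and 98.8 CPM in the TG libraries and 113, 112, 124 and 96.3 CPM in the WT libraries, and its log2 fold change was -0.09 (SE 0.11, edgeR, adjusted p = 1.0). It was the member that varied least, with a coefficient of variation over the 8 libraries of 9.49%, against 32.4% for Hsp90b1. Xbp1 messenger is spliced in the cytoplasm when the response is active. The deposited tables give its 2 listed transcripts as 1 expected count, from which the spliced form cannot be read. They also give a length for the gene, which was 2264 bases in each library but WT replicate 4, where it was 2262.16. The share of the spliced form was not estimated from this length.

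**Figure D2:**
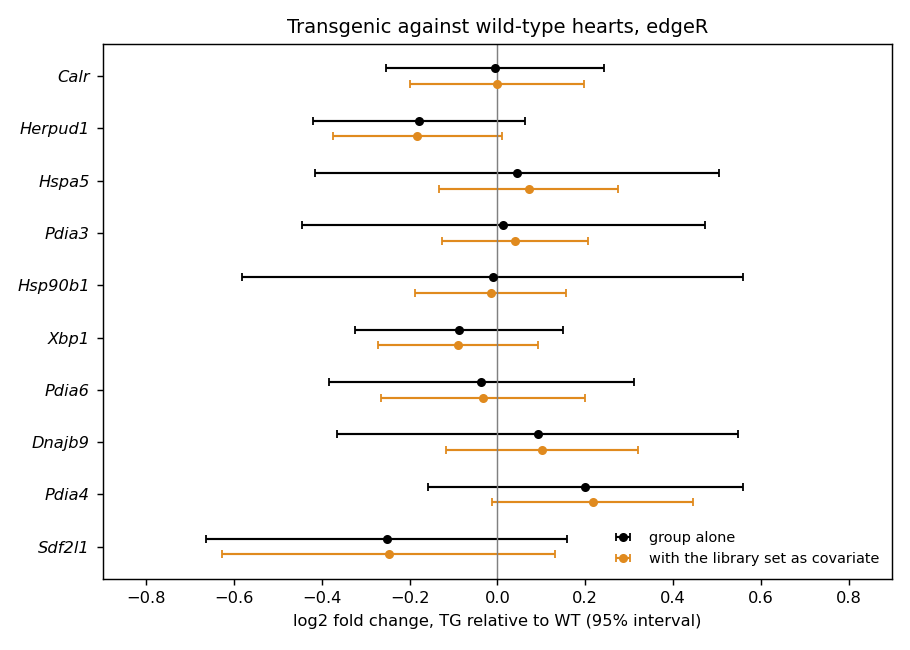
Log2 fold change of each member in TG relative to WT with its 95% interval, from edgeR with group alone (black) and with the library set as a covariate (orange). Every interval includes 0, and with the covariate the Hsp90b1 interval shrinks from -0.58 to 0.56 down to -0.19 to 0.16.

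When the library set was added to the model, a choice made once the data were known, the intervals became narrower and 0 of the 10 members were called by edgeR, while the count over all genes was 28. In that fit the ratio of TG to WT lay between 0.912 and 1.21 for Hspa5, between 0.878 and 1.11 for Hsp90b1 and between 0.916 and 1.15 for Pdia3, each at 95% confidence. Pdia4 and Herpud1 lay closest to the edge. Their log2 fold changes were 0.22 and -0.18, with edgeR unadjusted p values of 0.062 and 0.061 and Benjamini-Hochberg adjusted p values of 0.583 and 0.579. Within the 4 libraries with larger totals the log2 fold change of Pdia4 was 0.37 (edgeR, unadjusted p = 0.015, adjusted p = 0.406), and within the 4 with smaller totals it was 0.07. For Herpud1 these values were -0.07 and -0.29. The difference between the sets was not tested.

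The spread of 4 members between libraries ran along the library sets. Hspa5, Hsp90b1, Pdia3 and Dnajb9 stood higher in each of the 4 libraries with smaller totals than in any of the 4 with larger totals, which is 4 of 10 members against 16.0% of all tested genes. No member was lower in all 4, against 13.9%, and 29.9% of all tested genes were separated in either direction. The ratios of mean CPM between the sets were 1.84 for Hsp90b1, 1.59 for Pdia3, 1.56 for Hspa5 and 1.54 for Dnajb9. A separation with a ratio of at least 1.5 was present in 5.64% of all tested genes. That cut lies just under the lowest of these 4 ratios, and the share is not matched for base composition, read below. Pdia4 and Pdia6 had ratios of 1.30 and 1.29 with overlap. Sdf2l1 and Calr lay at 1.08 and 1.06, and Herpud1 and Xbp1 at 0.944 and 0.923. Between the highest and the lowest library Hsp90b1 differed by a factor of 2.15, where the median of the 9189 tested genes at or above the mean CPM of Sdf2l1 was 1.48 and 5.76% reached that of Hsp90b1.

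Within either set the separated members lay closer together, which complete separation of the sets entails. In the 4 libraries with larger totals Hsp90b1 lay between 91.1 and 106 CPM, and in the 4 with smaller totals between 162 and 195 CPM, in each case with TG and WT libraries side by side. Hspa5 lay between 194.5 and 246 CPM in the former and between 294 and 386 CPM in the latter. The split by total was made after the values were seen and is not a group of the study, so it carries no test.

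Transcript length and base composition moved with the same split. In the shortest and the longest of 5 classes by deposited length, the median log2 differences, smaller minus larger totals, were -0.15 and 0.19. In these 2 classes 4.98% and 26.4% of genes stood higher in all 4 libraries with smaller totals. The median log2 difference between the sets, smaller minus larger totals, was 0.44 in the 2512 tested genes with the lowest transcript GC content (33.2% to 44.9%) and -0.24 in the 2512 with the highest (56.1% to 72.8%), the outermost of 5 classes of near-equal size. In the lowest GC class 49.3% of genes stood higher in all 4 libraries with smaller totals, in the second lowest 24.1% and in the highest 0.199%. The members followed this order in part. Dnajb9 and Hsp90b1 had the lowest GC contents, 40.6% and 43.8%, with Pdia3 at 46.9% and Hspa5 at 47.3%, and Herpud1, Xbp1 and Sdf2l1 lay at 53.0%, 53.0% and 56.7%. Within these 5 classes each of the 10 members lay above the median of its own GC class, by 0.06 (Xbp1) to 0.47 (Pdia3) on the log2 scale. This depended on the width of the classes. With the finer classes used below, the difference was -0.01 for Xbp1 and 0.02 for Herpud1, so not all 10 stayed above. Several members rose and fell together over the libraries, so the count of members above the median carries no test.

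**Figure D3:**
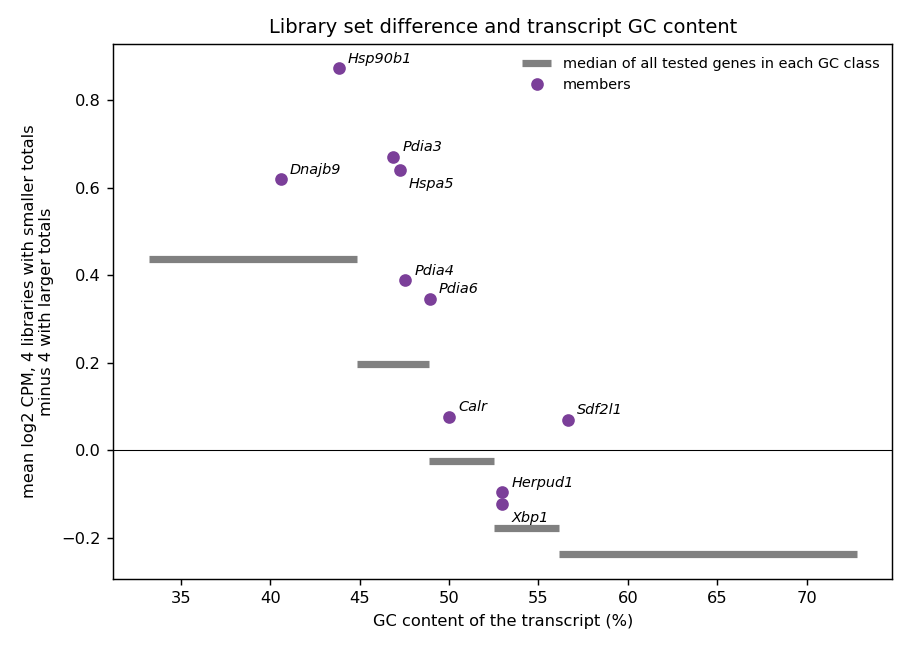
Difference in mean log2 CPM between the 4 libraries with smaller totals and the 4 with larger totals (vertical axis) against the GC content of the transcript in percent (horizontal axis). Grey bars are the medians of all tested genes in each of 5 GC classes and points are the members. All 10 points lie above the bar of their own class, which did not hold for Xbp1 with the finer classes of the text.

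The members were therefore also read after the median deviation of genes of like GC content, in 20 classes, was taken out of each library, a step also chosen with the data in view. The share of genes separated between the sets in either direction was 30.03% of the 12557 genes with a GC value before this step and 11.5% after it. Hspa5, Hsp90b1 and Pdia3 remained separated, with log2 differences of 0.47, 0.54 and 0.45 in place of 0.64, 0.87 and 0.67. Dnajb9, the member with the lowest GC content, did not remain separated, and its difference was 0.10 in place of 0.62. The difference of Sdf2l1 was 0.29 in place of 0.07, and those of Herpud1 and Xbp1 were 0.02 and -0.01.

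Markers of other cell types also moved with the split. In CPM of the library totals, the 8 fibroblast markers summed to 1548 to 2136 CPM in the libraries with smaller totals and to 1236 to 1346 CPM in the others, and 7 of the 8 were separated in that direction (5 of the 8 on the TMM scale). The 8 cardiomyocyte markers summed to 65930 to 68477 CPM and to 70433 to 77670 CPM in the same order, with 3 of the 8 lower and 1 higher in all 4 libraries with smaller totals (5 lower and 0 higher on the TMM scale). Markers of smooth muscle and pericytes summed to 1599 to 2105 CPM and to 1281 to 1459 CPM, with 1 of 8 separated. On the TMM scale 16.0% of all tested genes were higher and 13.9% lower in all 4 libraries with smaller totals. The fibroblast markers Dcn, Lum, Postn and Ddr2 had GC contents of 42.6%, 41.9%, 44.2% and 44.8%, within the lowest GC class. Pdgfra, Col3a1, Col1a2 and Col1a1 lay at 47.6%, 52.5%, 55.7% and 58.9%. Cardiomyocyte markers ran from 47.9% (Nppb) to 56.4% (Myh6). The summed markers of endothelial cells, macrophages, B and plasma cells, red cells, mesothelium and Schwann cells overlapped between the sets, although 3 of 8 macrophage markers were higher in all 4 libraries with smaller totals and 1 of 8 endothelial and 1 of 5 mesothelial markers lower. Ighm and Igkc were not listed in these tables, and the other 6 markers of B and plasma cells summed to 4.43 to 8.74 CPM. Atrial and adipocyte markers stood highest in TG replicate 2, at 899 and 771 CPM, and reached at most 282 and 46.4 CPM elsewhere. The summed level of each marker list overlapped between TG and WT, with macrophage sums of 384 to 622 and 588 to 716 CPM. Of the 8 macrophage markers 7 had a negative log2 fold change and 2 an edgeR unadjusted p under 0.05. So did 3 of 5 atrial markers and 1 gene each of the adipocyte, mesothelial and B and plasma cell lists, against 3.49% of all tested genes. After Benjamini-Hochberg adjustment 0 of these markers passed. The part of library depth, base composition, transcript length and cell makeup in the spread of the members was not tested.

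WT replicate 3 was the highest library for 9 of the 10 members, with Dnajb9 as the exception, and for 10.6% of all tested genes. There the 10 members took 0.209% of all expected counts, against 0.137% to 0.178% in the other 7 libraries. After the GC step it was still the highest for the same 9, and for 10.5% of the 12557 genes, with values of 0.22 (Pdia4) to 0.58 (Sdf2l1) above the mean of all libraries on the log2 scale. Without WT replicate 3 the median log2 fold change of the members was 0.16 in place of -0.01, and 0 of 10 were called (edgeR with Benjamini-Hochberg adjustment), with 1 member, Pdia4, at an unadjusted p under 0.05.

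No gene of the 8 other lists was called between TG and WT by edgeR by group or by DESeq2, as adjusted over all tested genes. The list counts below stand beside 2.53% of all tested genes without overlap of the groups and 3.49% with an edgeR unadjusted p under 0.05. Of 16 tested sensors and regulators of the response 0 passed in either direction, none had an unadjusted p under 0.05 in either tool, and the median log2 fold change was 0.00. Atf4, the factor made when translation is slowed, averaged 86.6 ± 13.9 CPM with the transgene and 102 ± 12 in wild type, the cleaved factor Atf6b 33.8 ± 3.8 and 38.0 ± 1.8, and Creb3 28.4 ± 1.3 and 31.5 ± 1.6 (SD, n = 4 each). These 3 had the smallest p values of the list, and in Creb3 alone of the 16 the groups did not overlap. Tmbim6, a calcium leak protein that restrains cell death, was the most abundant per length, with 371 ± 42 and 362 ± 40 CPM.

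Of 31 other folding factors 0 passed the edgeR test, 2 had an unadjusted p under 0.05 (1 with DESeq2), and the median log2 fold change was -0.04. Fkbp11, a prolyl isomerase of secretory cells, averaged 1.18 ± 0.22 CPM with the transgene and 2.00 ± 0.38 in wild type, with groups that did not overlap. The membrane thioredoxin Tmx1 stood at 38.4 ± 7.2 and 51.4 ± 11.5, the BiP cochaperone Dnajb11 at 46.0 ± 3.0 and 40.5 ± 5.3, and the collagen chaperone Serpinh1, the most abundant per length, at 624 ± 67 and 555 ± 102 CPM (SD, n = 4 each).

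The degradation, entry and transport steps held no gene with an unadjusted p under 0.05 in edgeR or DESeq2. Of 24 tested genes of the degradation pathway 0 passed the edgeR test and the median log2 fold change was 0.06. Faf2, which brings the Vcp segregase to the membrane, averaged 32.1 ± 1.2 CPM with the transgene and 28.2 ± 1.2 in wild type, and Derl1, a channel component, 96.6 ± 4.9 and 87.8 ± 4.6, both without overlap of the groups and with edgeR unadjusted p values of 0.104 and 0.165. Erlin1 stood at 12.6 ± 3.4 and 9.88 ± 1.68, and Vcp itself at 382 ± 23 and 363 ± 30 CPM (SD, n = 4 each).

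Of 24 genes of translocation and N-glycosylation 0 passed, with a median of -0.02. Sec61g of the translocon, the translocon-associated Ssr4 and the signal peptidase subunit gene Spcs1 had the smallest p values, with log2 fold changes of -0.17, -0.19 and -0.13, and Dad1, the most abundant per length, had -0.05. Of 16 genes of retrieval and transport to the Golgi 0 passed, with a median of 0.03, and Mcfd2, Sec31a, Copa and the retrieval receptor Kdelr1 had log2 fold changes of 0.11, 0.09, 0.09 and 0.03.

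**Figure D4:**
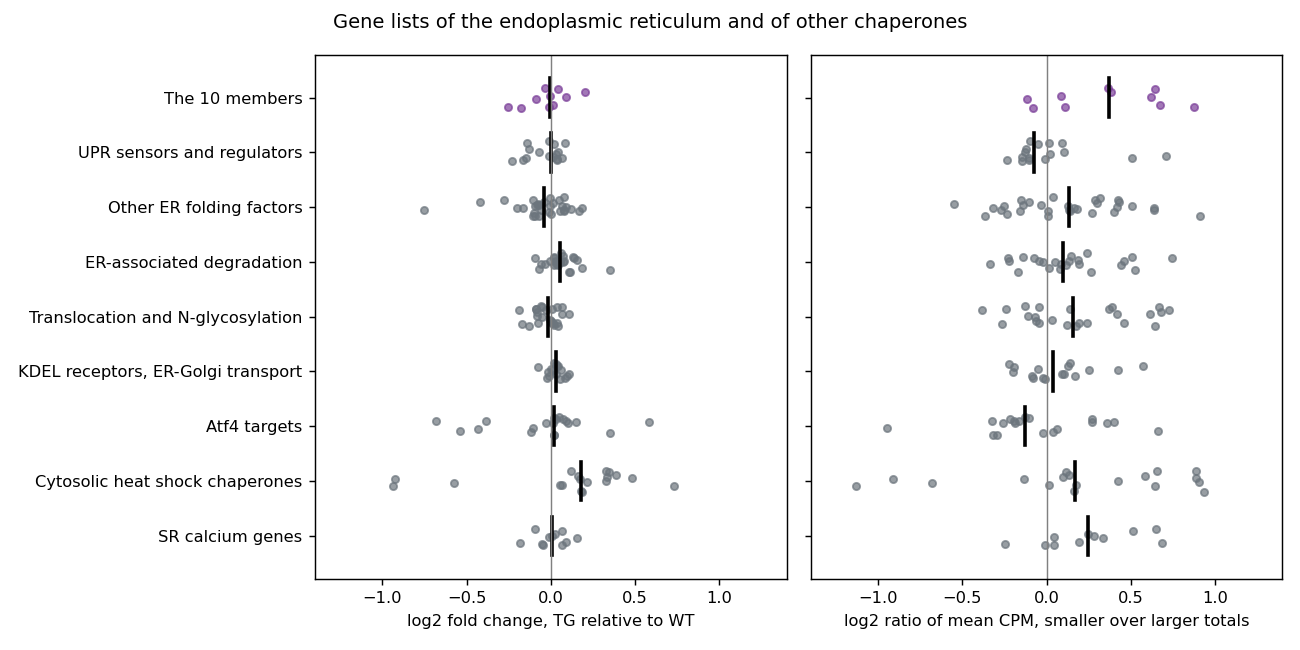
Each point is a tested gene of the list named on the left, with the black line at the list's median. The left panel gives the log2 fold change in TG relative to WT and the right panel the log2 ratio of mean CPM between the 4 libraries with smaller and the 4 with larger totals. The members lie between -0.25 and 0.20 on the left, and on the right 8 of the 10 lie above 0.

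Lists related to the members through stress or calcium were read beside them. Of 19 targets of Atf4 0 passed the edgeR test, with a median log2 fold change of 0.02, and 2 (Nupr1 and Atf3) had an unadjusted p under 0.05, as 2 did with DESeq2. Nupr1, a stress-induced chromatin protein, averaged 7.17 ± 1.38 CPM with the transgene and 4.80 ± 1.19 in wild type, Atf3 8.50 ± 2.37 and 13.6 ± 5.0, the serine synthesis gene Psph 7.25 ± 0.90 and 5.67 ± 0.57, and the autophagy receptor Sqstm1, the most abundant per length, 500.2 ± 71.1 and 495 ± 57 (SD, n = 4 each). Of 11 tested calcium genes of the sarcoplasmic reticulum 0 passed, with a median of 0.00 and no unadjusted p under 0.05 in either tool. The calcium pump gene Atp2a2 stood at 10990 ± 277 and 11340 ± 624 CPM, and Itpr2, Trdn and Hrc had log2 fold changes of 0.15, -0.19 and 0.07.

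Of 18 cytosolic heat shock chaperones 0 passed the edgeR test, 4 had an unadjusted p under 0.05 (5 with DESeq2), 15 had a positive log2 fold change, against 49.5% of all tested genes, and the median was 0.18. Hsp90ab1, the cytosolic relative of Hsp90b1, averaged 2048 ± 106 CPM with the transgene and 1623 ± 159 in wild type (SD, n = 4 each), with groups that did not overlap (unadjusted p = 0.0070, edgeR Benjamini-Hochberg adjusted p = 1.0). Stip1, which links Hsp70 to Hsp90, stood at 219.7 ± 17.3 and 168 ± 20, also without overlap, Hsph1 at 88.9 ± 29.7 and 53.5 ± 9.2, and the small heat shock protein gene Cryab, the most abundant per length, at 3407 ± 155 and 3024 ± 569 CPM. The other gene with an unadjusted p under 0.05 lay in the opposite direction. Dnajb1, an Hsp70 cochaperone, averaged 23.9 ± 4.4 CPM with the transgene and 45.7 ± 28.0 in wild type, a difference of -0.94 on the log2 scale (edgeR unadjusted p = 0.025, Benjamini-Hochberg adjusted p = 1.0), and its WT values were 67.2 and 71.9 CPM in replicates 1 and 2 but 28.0 and 15.9 in replicates 3 and 4. The inducible Hsp70 genes Hspa1b and Hspa1a, near-identical copies between which reads can be split, had differences of -0.93 and -0.58 with SEs of 0.71 and 0.62. These 3 were the negative values among the 18, and were named for that after their values were seen. With the library set as a covariate Hsph1 passed (edgeR, Benjamini-Hochberg adjusted p = 0.045), and no other gene of the 8 lists did. The counts of genes separated between the library sets stand beside 16.0% of all tested genes higher and 13.9% lower in the 4 libraries with smaller totals. Among sensors and regulators 2 of 16 were higher and 1 lower, among other folding factors 7 of 31 and 4, in the degradation pathway 8 of 24 and 2, in translocation and N-glycosylation 10 of 24 and 2, and in transport 3 of 16 and 2. Among Atf4 targets 1 of 19 was higher and 5 were lower, among cytosolic chaperones 5 of 18 and 0, and among calcium genes 5 of 11 and 1. Whether the endoplasmic and cytosolic chaperones differ in their response was not tested.

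The 5 genes most like Hspa5, and the 5 most like the mean of the members, across the 8 libraries were sought among 8345 genes outside the lists with a mean of at least 10 CPM. For Hspa5 these were Krt222, Dhx40, Rnf19a, Corin and Cdc37l1, with Pearson r between 0.985 and 0.987 on log2 CPM. For the mean of the 10 members they were Aasdhppt, Appl1, Klhdc2, Ankra2 and Tpm4, with r between 0.951 and 0.976. All of these 10 genes were separated toward the libraries with smaller totals, as 16.0% of all tested genes were. Hspa5 and the mean of the members were themselves separated that way, so this count reflects how the genes were chosen. The 8 points of each correlation fall into those 2 sets and share their depth, so r is a description and carries no test.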

How the data were processed

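Polyadenylated RNA of 8 mouse heart samples was extracted and made into libraries by the Beijing Genomics Institute according to the protocols in the labels. The deposited tables hold expected counts and FPKM, both computed by the authors, for each NCBI Gene number, and genes at 0 are not listed and were taken as 0. The submitters' processing notes name Bowtie2 and mm8 but not what each was used for. The counting program and use of strand are not given in the sources used here.

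Of 18215 gene numbers 18174 matched a symbol of GRCm38.p6, used for names and for promoter windows. Expected counts were rounded, filtered with filterByExpr (minimum count 10, total 15) and tested with edgeR 4.0.16 (R 4.3.3; quasi-likelihood, TMM, group alone, two-sided, Benjamini-Hochberg over 12670 genes, threshold 0.05). Intervals are 95%, from the moderated degrees of freedom. Log values used a prior count of 2. GC content came from GENCODE M21 transcripts matched by RefSeq accession, for 99.1% of tested genes. Scripts were tested on simulated data. No pair of libraries within a group agreed within sampling noise (lowest chi-square per degree of freedom 4.29). Floors cover counting error only.

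Members and lists were chosen with earlier results of these data known. From each of 8 lists the 3 genes with the smallest p and the most abundant gene per length were named. DESeq2 1.42.0, limma 3.58.1 on log2(FPKM + 1) and log2(FPKM + 0.1), other scalings and filters, covariates and leaving out each library were tried.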

Additional observations from a re-analysis of the deposited data

Results flagged for a closer look

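In WT, the Pdia6 value of replicate 3, 110.4 CPM, stood far from the other 3 libraries, which lay between 66.3 and 73.1 CPM. The Sdf2l1 value of the same library, 11.7 CPM, stood far from the others at 8.10 to 8.46 CPM. In each case the gap to the nearest library, divided by the whole range (0.846 and 0.901), was above the Dixon limit for 4 samples, which chance alone passes in about 1 in 20 groups. The 10 members in TG and in WT made 20 such groups, and the 2 that passed share 1 library. Both genes belong to the 9 members that were highest in WT replicate 3, and the cause was not tested.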

How the results depend on the processing

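No member was called under any of the 22 alternatives. Herpud1, Sdf2l1 and Xbp1 kept a negative and Pdia4 a positive log2 fold change in all 22, and the other 6 members changed sign in 2 to 7 of them, without a call. Leaving out single libraries put the members' median between -0.09 and 0.16. The count of genes called, 2 in the edgeR fit by group, was 15 with DESeq2, 4 without a filter, 1 with limma on either FPKM scale, 22 with the log2 library total as a covariate and 0 with Carns1 left out, where 441 genes had an unadjusted p under 0.05. Leaving out 1 library gave 1 to 3. Among fits added after the data were seen, it was 28 with the library set as a covariate, 59 and 4 within the libraries with larger and with smaller totals, and 7 with GC offsets. The cause of these differences was not tested. With the replicate block the count was 1. The deviations of same-numbered TG and WT libraries correlated at r = 0.24, -0.28, -0.18 and 0.40 for replicates 1 to 4. Every TG to WT correlation within a library set was positive and every one between the sets negative. The TG and WT libraries of replicates 2 and 3 lie in opposite sets, so these values cannot show whether the numbers pair animals. The labels do not say that they do, and the numbers were not taken as pairing. At 38 to 78 counts per library, depth limits Sdf2l1 most.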
